A study of Mus musculus with 8 samples.

Results

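The genes described are 6 matrix metalloproteinase (MMP) genes, *Mmp2*, *Mmp9*, *Mmp13*, *Mmp14*, *Mmp16* and *Mmp23*, and 3 genes for tissue inhibitors of metalloproteinases, *Timp1*, *Timp2* and *Timp3*, chosen by name as a family. All 9 were found by symbol among the 31053 genes of the count tables. Cells of the parietal bone, a flat bone of the skull, from mouse pups at postnatal day 4 to 5 were profiled by droplet single-cell RNA sequencing. There were 4 wild type (WT) libraries (S1, S2, S5 and S6) and 4 libraries (S3, S4, S7 and S8) heterozygous for the G610C allele (Het), a glycine to cysteine substitution in the triple helical region of the procollagen chain encoded by *Col1a2* that models osteogenesis imperfecta, all labelled with strain B6.129(FVB)-Col1a2tm1Mcbr/J. Each library pooled cells of several animals of the same genotype, so it was the replicate and differences between single animals cannot be seen. S1 to S4 were made with kit version 3 and S5 to S8 with kit version 3.1, so each genotype had 2 libraries of each kit version, and the counting software changed from Cell Ranger 5.0.0 to 6.0.1 along with the kit. The kit versions are those of the labels, while the study's methods name version 3.1 chips throughout, so a difference between kit versions below is a difference between these 2 sets of libraries, in which kit, software and any other change cannot be told apart.

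MMPs are zinc-dependent proteases that cut collagens and other matrix proteins outside the cell. Collagenase-3 (*Mmp13*) cuts fibrillar collagen, the gelatinases (*Mmp2* and *Mmp9*) cut denatured collagen, and the membrane-anchored enzymes (*Mmp14* and *Mmp16*) act at the cell surface, where MMP14 also activates the MMP2 proenzyme together with TIMP2. *Mmp23* encodes an atypical membrane-associated member of the family. TIMPs bind and block the active enzymes, and TIMP3 stays bound to the matrix. In bone, *Mmp9* is a well known product of osteoclasts, and *Mmp13* of osteoblasts and hypertrophic chondrocytes.

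Of 46420 cells kept, 2671 were osteoblasts (OBs), selected by *Col1a1* (10 or more unique molecular identifiers, UMIs) together with any 2 of the genes *Runx2*, *Sp7* and *Ibsp* (2 or more UMIs in each). None of the 9 genes was used in that rule. OBs were split by the *Col1a1* share of the cell's UMIs into 379 early (eOBs, under 0.75%), 1217 differentiating (dOBs, 0.75% to 3.5%) and 1075 mature cells (mOBs, over 3.5%). The other 43749 cells served as the comparison. By library the eOBs numbered 81 (S1), 23 (S2), 95 (S5) and 50 (S6) in WT and 22 (S3), 23 (S4), 58 (S7) and 27 (S8) in Het. Among the 10 leading genes of OBs against all other cells were *Bglap*, *Bglap2*, *Spp1*, *Ifitm5* and *Dmp1*, known OB and osteocyte genes that the rule did not use. Levels are given as the percent of all UMIs of the cells, with 1 UMI counted per captured molecule.

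The suspensions differed between libraries. Neutrophil-like cells made up 25.2% and 20.5% of the cells in WT S1 and S2 and 0.177% to 1.83% in the other libraries, and erythroid-like cells 8.21% and 32.5% against 0.0443% to 3.25%. Chondrocyte-like cells made up 2.72% and 3.64% in S1 and S2, 28.6% and 20.4% in Het S3 and S4, and 45.6% to 71.8% with kit version 3.1. Depth per library ran from 27648058 to 76068243 UMIs in the kept cells. Pairs of libraries shared 2 to 61 cell barcodes. Markers of other cell types were also read in OBs. The summed chondrocyte list took 0.00311% to 2.94% of eOB UMIs in WT and 0.170% to 1.19% in Het, against 0.00312% to 0.112% and 0.0254% to 0.273% in mOBs. The osteoclast list took 0.0103% to 0.0207% of eOB UMIs in WT and 0.0148% to 0.156% in Het, and 0.0330% to 0.0612% in the mOBs of all libraries. The neutrophil list took 0.00021% to 0.142% of eOB UMIs in WT and 0% to 0.00343% in Het. In mOBs it took 0.00029% to 0.131% in WT and 0% to 0.00126% in Het. The pericyte or smooth muscle list separated the genotypes in dOBs, at 0.0419% to 0.0560% in WT and 0.0622% to 0.0768% in Het, and in mOBs took 0.00750% to 0.0226% in WT and 0.0226% to 0.0453% in Het. The part of these cells' RNA in the differences below, *Timp3* and *Mmp9* in Het against WT mOBs among them, was not tested.

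Promoter sequences are shown for *Mmp13* and *Timp1*, whose levels moved in opposite directions between OB stages. Both come from RefSeq (GRCm38.p6) and are the 250 bases before the annotated start, read along the gene's strand. Capitals mark matches to an AP-1 motif (TGANTCA), a runt motif (ACCACA) or a GC box (GGGCGG), each searched on both strands.
Mmp13, chr9:7272264-7272513 (+): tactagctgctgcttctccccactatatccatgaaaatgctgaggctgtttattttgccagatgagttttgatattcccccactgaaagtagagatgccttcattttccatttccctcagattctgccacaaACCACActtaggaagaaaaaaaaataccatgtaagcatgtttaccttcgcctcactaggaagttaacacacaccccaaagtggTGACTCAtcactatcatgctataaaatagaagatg
Timp1, chrX:20869916-20870165 (+): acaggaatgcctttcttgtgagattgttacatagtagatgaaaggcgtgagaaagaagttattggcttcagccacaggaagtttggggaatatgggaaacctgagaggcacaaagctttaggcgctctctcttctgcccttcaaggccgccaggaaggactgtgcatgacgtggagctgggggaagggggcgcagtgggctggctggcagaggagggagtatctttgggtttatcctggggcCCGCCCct

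The *Mmp13* window held 1 AP-1 match, 35 bases before the start, and 1 runt match, 118 bases before it, counted at the base of each match farthest from the start. The *Timp1* window held neither and had 1 GC box on the opposite strand. Over the 32851 promoter windows of the same length in the table, 6.75% held the AP-1 motif, 14.0% the runt motif and 32.7% the GC box. The G and C content was 40.4% for *Mmp13* and 54.4% for *Timp1*, beside a median of 52.4% over all windows. Of the 9 genes, 6 were in the table. *Mmp14* and the upstream of 2 windows of *Mmp23* each held 1 runt match, and neither these nor *Timp2* and *Timp3* held an AP-1 match.

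In GRCm38 (GENCODE M21) the genes are spread over 8 chromosomes. *Mmp13* lies at chr9:7272514-7283331 (+), *Mmp9* at chr2:164940780-164955850 (+), *Mmp2* at chr8:92827291-92853420 (+), *Mmp14* at chr14:54431612-54445364 (+), and *Mmp16* and *Mmp23* both on chromosome 4, at chr4:17852893-18119145 (+) and chr4:155650655-155653384 (-). *Timp1* (chrX:20870166-20874735, +) and *Timp3* (chr10:86300372-86349506, +) overlap the genes *Syn1* and *Syn3* on the opposite strand, and *Timp2* (chr11:118301069-118355740, -) overlaps *Cep295nl* on its own strand. Counts in the last overlap could be split between both genes and are uncertain. *Mmp16* overlaps the pseudogene *Gm11860* on the opposite strand.

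Across cell classes the highest class was osteoclast-like cells for *Mmp9*, OBs for 3 genes, fibroblast-like cells for 4 and cells left unnamed for *Mmp14*. Classes were set by fixed marker lists, and medians are over the libraries with at least 10 cells of the class, from 3 libraries for fibroblast-like cells to all 8. *Mmp9* was highest in osteoclast-like cells, with a median of 0.506% of UMIs and a range of 0.298% to 0.904% over 8 libraries. Neutrophil-like cells followed at 0.107% (0.0678% to 0.143%, 7 libraries), below every osteoclast-like value, and OBs stood at 0.00511% (0.00263% to 0.00873%, 8 libraries). The osteoclast-like cells were 235 of the 46420 cells and held 31.7% of all *Mmp9* UMIs, whereas the OBs held 2.62%.

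*Mmp13*, *Timp1* and *Mmp16* had OBs as their highest class. The median *Mmp13* level in OBs was 0.0857% (0.0302% to 0.170%), followed by cells in no marker class at 0.0504% (0.0139% to 0.114%), and these ranges overlapped. B cell-like and erythroid-like cells, which are not known to make collagenase-3, had 0.00241% and 0.00258%. Whether free RNA in the droplets gave these levels was not tested. *Timp1* in OBs (0.0553%, 0.0251% to 0.0791%) lay above the range of every other class, the next being chondrocyte-like cells at 0.0149% (0.0129% to 0.0200%). *Mmp16* in OBs (0.0226%, 0.00719% to 0.0459%) overlapped with chondrocyte-like cells (0.0152%, 0.00527% to 0.0294%) and with each of the next 4 classes in order, fibroblast-like cells, the progenitor-list cells, cells in no class and pericyte or smooth muscle-like cells.

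Fibroblast-like cells had the highest *Mmp2* (0.104%), *Mmp23* (0.0320%), *Timp2* (0.182%) and *Timp3* (0.100%) medians, all from 3 kit version 3 libraries, since the kit version 3.1 libraries held 0 to 2 such cells. Their lowest library lay above the highest library of the next class for *Mmp23*, *Timp2* and *Timp3*. *Timp3* was next highest in endothelial-like cells (0.0308%, 0.0263% to 0.0369%) and pericyte or smooth muscle-like cells (0.0302%, 0.0152% to 0.0554%). *Mmp14* was broad: its 5 highest medians, from 0.0519% to 0.0991%, belonged to cells with markers of the mesenchymal progenitor list, cells in no class, OBs, osteoclast-like cells and pericyte or smooth muscle-like cells, with overlapping ranges. The cells of the progenitor list are left unnamed because none of their 10 leading genes was a marker on that list.

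**Figure D1:**
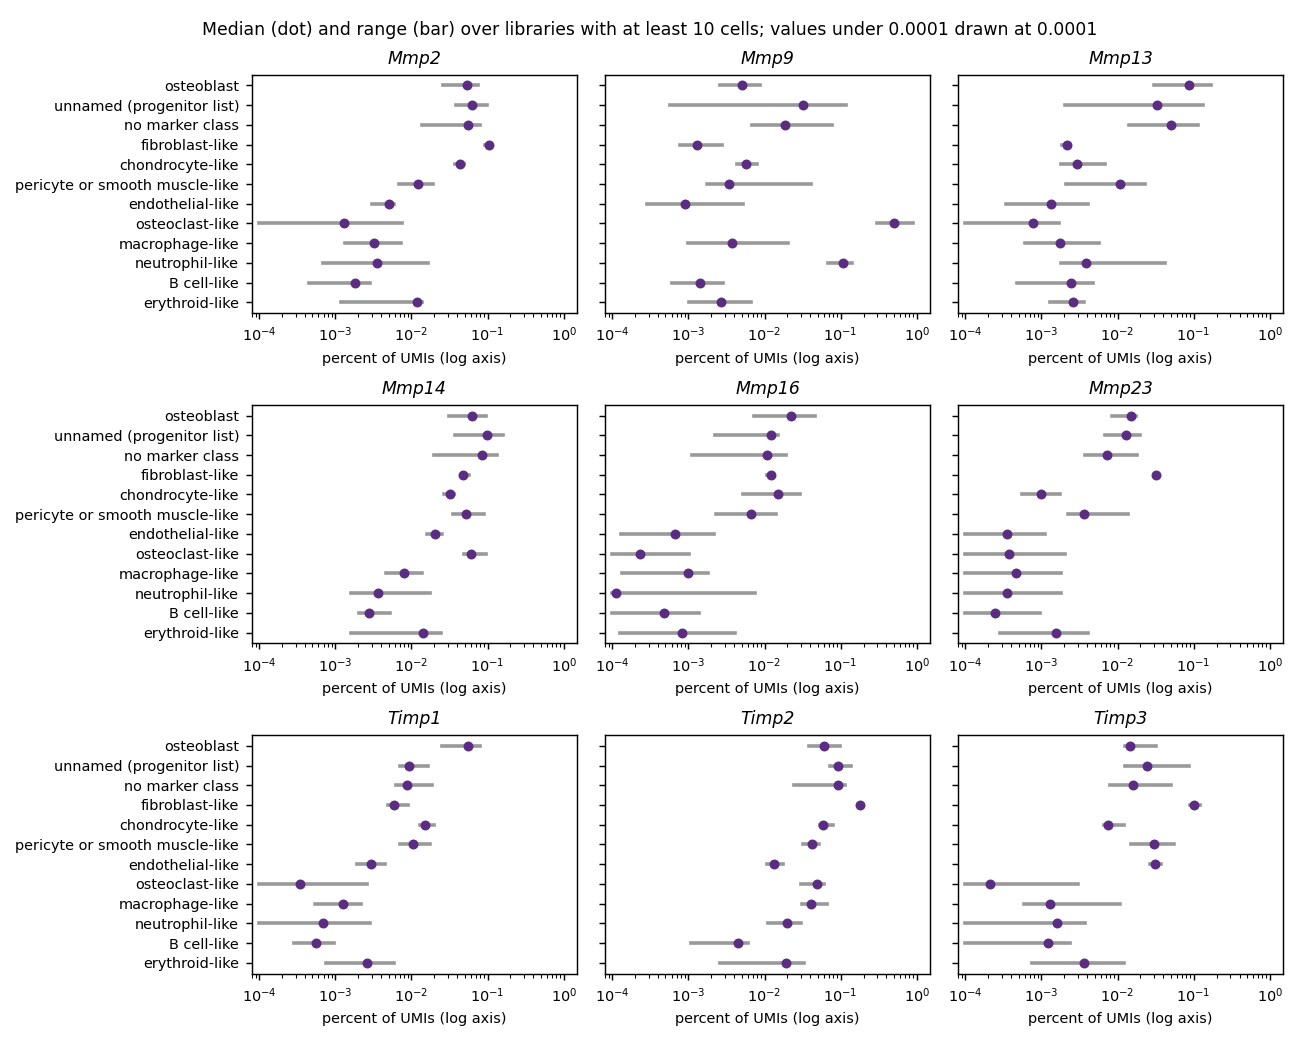
Median level (dot) and range over libraries (bar) of each gene in each cell class, as percent of UMIs on a log axis, for libraries with at least 10 cells of the class and with values under 0.0001% drawn at 0.0001%. *Mmp9* peaks in osteoclast-like cells at 0.506%, *Timp1* in OBs at 0.0553%, and *Timp2* and *Timp3* in fibroblast-like cells at 0.182% and 0.100%.

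Part of the *Mmp9* and *Mmp13* outside the OBs was in the same cells. A total of 860 other cells had at least 3 UMIs of both genes, a rule chosen after the values were seen and therefore given as a description with no test. They were 1.97% of the other cells and held 32.8% of their *Mmp9* and 55.5% of their *Mmp13* UMIs. By library they numbered 51 (S1), 37 (S2), 132 (S5) and 258 (S6) in WT and 37 (S3), 70 (S4), 141 (S7) and 134 (S8) in Het. They held from 32.7% (S4) to 72.6% (S8) of the *Mmp13* and from 7.49% (S2) to 57.3% (S6) of the *Mmp9* UMIs of the other cells.

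Of these 860 cells, 483 were in no marker class, 189 met the progenitor list, 143 were chondrocyte-like and 3 osteoclast-like. Their median depth was 11681.5 UMIs, against 6438 for all non-osteoblasts. The tartrate-resistant phosphatase gene *Acp5*, a defining osteoclast marker, was at 0.00598% of their UMIs, against 0.00971% in all non-osteoblasts. In S1, unlike the other libraries, it was higher in these cells, at 0.0427% against 0.0137%. Among the genes with a high mean log2 ratio to the remaining other cells, over the libraries, were *Gadd45a* (a mean of 0.0575% against 0.00423% of UMIs over the libraries), *Ccdc80* (0.219% against 0.0314%) and *Sh3pxd2b*, a podosome scaffold gene (0.0341% against 0.00423%), each higher in 8 of 8 libraries. *Mmp14* was at 0.209% against 0.0343%, also in 8 of 8 libraries. Among OBs, 93 cells had both genes by the same rule and held 70.2% of the *Mmp9* but 13.8% of the *Mmp13* UMIs of OBs.

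**Figure D2:**
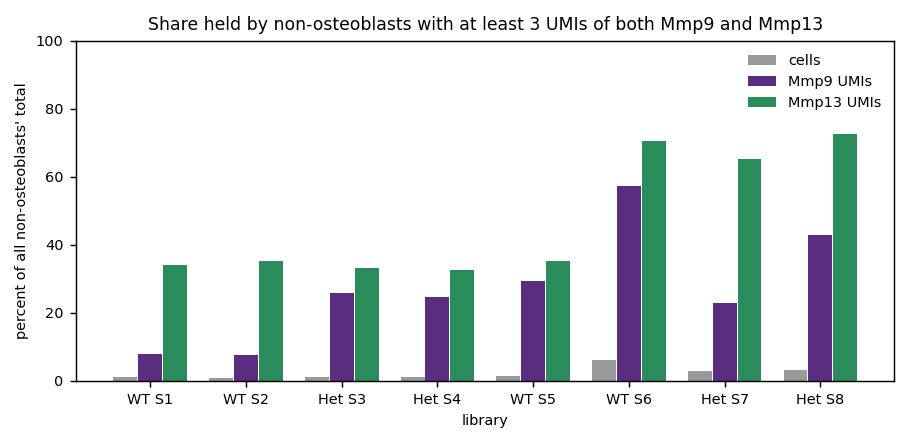
Bars show, for each library, the percent of all non-osteoblasts, of their *Mmp9* UMIs and of their *Mmp13* UMIs that belong to cells with at least 3 UMIs of both genes. In S6 these cells are 6.01% of the non-osteoblasts and hold 57.3% of the *Mmp9* and 70.5% of the *Mmp13* UMIs.

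OBs and the other cells of the same libraries were then compared by edgeR's quasi-likelihood test on summed UMIs with the library as a block, and a gene was said to rise or fall at a Benjamini-Hochberg adjusted p under 0.05 over all genes tested. In OBs 6 of the 9 genes were higher and 1 lower than in the other cells, where 37.5% of the 16420 genes tested were called. *Mmp13* was higher by 2.64 ± 0.23 (log2, SE; adjusted p = 1.87e-05), *Timp1* by 2.49 ± 0.40 (adjusted p = 0.000709), *Mmp23* by 2.08 ± 0.36 (adjusted p = 0.00115) and *Mmp16* by 1.49 ± 0.33 (adjusted p = 0.00481), each in 8 of 8 libraries. *Mmp14* and *Mmp2* were higher by 0.79 ± 0.17 and 0.78 ± 0.25, both in 6 of 8 libraries, and *Mmp9* was lower by -1.92 ± 0.26 (adjusted p = 0.00029) in 8 of 8. *Timp2* and *Timp3* did not pass, with 0.38 ± 0.15 and 0.24 ± 0.27.

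The size of 2 of these differences depended on the kit version, where 7.95% of all genes differed. *Timp1* was higher in OBs by 3.54 ± 0.28 with kit version 3 and by 1.5 ± 0.26 with kit version 3.1 (adjusted p of the difference 0.0117), and *Mmp23* by 1.21 ± 0.31 and 2.89 ± 0.32 (adjusted p = 0.0427). Against only the other cells in no marker class, an alternative added after the data were seen, *Mmp14* in OBs differed by -0.04 and *Mmp2* by 0.36, and neither was called. The differences of *Mmp13* (1.02, adjusted p = 0.0278) and *Mmp23* (0.89, adjusted p = 0.00816) were smaller there and stayed called. The call for *Mmp2* held in 10 of 18 alternatives, and among those that lost it were the fits without S1, S5, S6, S7 or S8, with adjusted p from 0.0532 to 0.0805. *Timp2* was called in 4 of 18 alternatives, namely without S3 (0.45, adjusted p = 0.0408), with DESeq2 (0.37, adjusted p = 0.0298), with OBs selected at 1 UMI (0.52, adjusted p = 0.0198) and without OBs that met another class's rule (0.44, adjusted p = 0.0463).

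Within the OB lineage the collagenase and the gelatinase B gene were lower in mOBs than in eOBs in all 8 libraries. *Mmp9* was highest in eOBs in each library, whereas *Mmp13* was higher in dOBs than in eOBs in 3 of 8 (S1, S5 and S7). *Mmp13* in eOBs stood at 0.265% (S1), 0.304% (S2), 0.0709% (S5) and 0.131% (S6) in WT and at 0.195% (S3), 0.215% (S4), 0.0617% (S7) and 0.127% (S8) in Het. In mOBs it stood at 0.0163%, 0.0457%, 0.0433% and 0.0725% in the same WT order and at 0.00413%, 0.0139%, 0.0491% and 0.0323% in Het. Every library was lower in mOBs than in eOBs, and the kit version 3 libraries were the higher in eOBs and mostly the lower in mOBs.

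*Mmp13* fell by 1.99 ± 0.43 on the log2 scale from eOBs to mOBs (adjusted p = 0.00102) and by 1.42 ± 0.40 from dOBs to mOBs (adjusted p = 0.0119), and did not pass from eOBs to dOBs (-0.57 ± 0.41). With kit version 3 the eOB to mOB difference was -3.46 ± 0.38, and with kit version 3.1 it was -0.58 ± 0.34, which did not pass there (adjusted p of the difference between kit versions 0.00121). The dOB to mOB call was lost when OBs were selected at 1 UMI of each gene (-0.76, adjusted p = 0.151).

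*Mmp9* in eOBs stood at 0.0200% (S1), 0.00966% (S2), 0.00811% (S5) and 0.0243% (S6) in WT and at 0.0455% (S3), 0.0186% (S4), 0.0305% (S7) and 0.0365% (S8) in Het. In mOBs all 8 libraries lay between 0.000451% and 0.00378%, from 3 to 108 UMIs a library. The eOB values lay above every mOB value. *Mmp9* fell by 3.73 ± 0.47 from eOBs to mOBs (adjusted p = 2.62e-06), and the log2 difference from eOBs to dOBs was -2.45 ± 0.42 (adjusted p = 0.000409), lower in 8 of 8 libraries for each. From dOBs to mOBs it did not pass (-1.28 ± 0.48, adjusted p = 0.0539), though it did in 7 of 18 alternatives, among them those without S3 (-1.49), S4 (-1.68) or S8 (-1.35). This step was -0.23 ± 0.60 with the older kit and -2.53 ± 0.58 with the newer (adjusted p of the difference 0.3).

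Cells with osteoclast markers were counted beside this. Of 379 eOBs, 3 had at least 2 of the osteoclast list's markers other than *Ctsk*, and the level of *Mmp9* over the remaining eOBs was 0.0197%. In Het S3, however, 1 such cell held 92.7% of the eOB *Mmp9* UMIs, and the level without it was 0.00369%. Among dOBs 9 such cells held 23.0% of the *Mmp9* UMIs. In the dOBs of WT S5, 4 of them held 53.5%, and the level without these was 0.00252%. In mOBs 3 such cells held 1.6%. The ratio of *Mmp9* to *Acp5* UMIs was 7.13 in eOBs (0.965 in those of S3), 1.94 in dOBs, 0.789 in mOBs and 1.10 in osteoclast-like cells. In neutrophil-like cells, the class next highest in *Mmp9*, the ratio was 78.5. *Mmp9* was uneven among OBs: the 267 cells with the most held 92.8% of the OBs' *Mmp9* UMIs, whereas the 267 with the most *Mmp13* held 66.1% and those with the most *Mmp2* held 33.9%.

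*Timp3*, the gene of the matrix-bound inhibitor, fell by 1.26 ± 0.40 from eOBs to mOBs (adjusted p = 0.018). In eOBs it stood at 0.0503% (S1), 0.0477% (S2), 0.0147% (S5) and 0.0179% (S6) in WT and at 0.0484% (S3), 0.0216% (S4), 0.0205% (S7) and 0.0184% (S8) in Het. In mOBs the 4 libraries of kit version 3 ranged from 0.00222% to 0.00479% and those of kit version 3.1 from 0.0107% to 0.0187%. The fall was large with kit version 3 (-2.91 ± 0.29) and near 0 with kit version 3.1 (-0.10 ± 0.26), a difference that passed (adjusted p = 0.000153). The call over all libraries was lost without S2 (-1.0, adjusted p = 0.0669) or without S3 (-1.05, adjusted p = 0.0651), and when OBs were selected at 1 UMI (-0.88, adjusted p = 0.0832) or 3 UMIs (-1.21, adjusted p = 0.0867). From dOBs to mOBs *Timp3* did not pass (-1.05 ± 0.39, adjusted p = 0.0501), but did in 8 of 18 alternatives, among them those without S7 (-1.31) or S8 (-1.21). Fibroblast-like cells, the class highest in *Timp3*, were 0.168% to 7.19% of cells with kit version 3 and 0% to 0.0443% with kit version 3.1, and their part in the result was not tested.

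The inhibitor *Timp1* and the membrane enzyme *Mmp16* changed the other way. *Timp1* in eOBs stood at 0.0414% (S1), 0.0807% (S2), 0.0215% (S5) and 0.0167% (S6) in WT and at 0.0348% (S3), 0.0490% (S4), 0.0195% (S7) and 0.0206% (S8) in Het. In mOBs it stood at 0.0683%, 0.0913%, 0.0471% and 0.0361% in WT and 0.0830%, 0.0753%, 0.0643% and 0.0533% in Het. All 8 libraries were higher in mOBs, by 1.47 ± 0.18 (log2, adjusted p = 2.09e-06) (1.23 ± 0.24 for the older kit and 1.69 ± 0.24 for the newer).

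*Mmp16* in eOBs stood at 0.00509% (S1), 0.00748% (S2), 0.0229% (S5) and 0.0297% (S6) in WT and at 0.00331% (S3), 0.00686% (S4), 0.0368% (S7) and 0.0304% (S8) in Het. In mOBs it stood at 0.0184%, 0.0113%, 0.0550% and 0.0560% in WT and 0.00893%, 0.0122%, 0.0584% and 0.0587% in Het. The kit version 3.1 libraries lay above all kit version 3 libraries at both stages, and every library was higher in mOBs than in eOBs. The rise was 1.49 ± 0.14 from eOBs to mOBs (adjusted p = 4.41e-08) and 1.13 ± 0.13 from dOBs to mOBs (adjusted p = 2.38e-06), and the earlier step did not pass (0.36 ± 0.14).

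*Mmp23* rose at the earlier step. It was between 0.00277% and 0.0103% in the eOBs of the 8 libraries and between 0.0113% and 0.0185% in the dOBs, with no overlap, a rise of 1.85 ± 0.22 (adjusted p = 1.38e-05), and the step from dOBs to mOBs did not pass (0.20 ± 0.18). *Mmp2*, the gelatinase A gene, rose by 0.56 ± 0.14 from eOBs to dOBs and by 0.65 ± 0.13 from dOBs to mOBs, and by 1.21 ± 0.14 over both steps (adjusted p = 6.14e-07). The *Mmp2* call from eOBs to dOBs held in 16 of 18 alternatives and was lost without S6 (0.49, adjusted p = 0.0513). It was also lost without OBs with at least 3 markers of another class (0.44, adjusted p = 0.199), a fit of kit version 3 libraries alone.

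The MMP14 and TIMP2 genes differed between kit versions in direction or size. *Mmp14* did not pass from eOBs to mOBs over all libraries (0.27 ± 0.18), at -0.36 ± 0.18 with the older kit and 0.86 ± 0.17 with the newer (adjusted p of the difference 0.00422). *Timp2* passed (0.67 ± 0.19, adjusted p = 0.00881), with -0.03 ± 0.16 and 1.31 ± 0.16 (adjusted p of the difference 0.00106), so the call rested on the kit version 3.1 libraries. Its mOB level was 0.0253% to 0.0421% in kit version 3 and 0.0755% to 0.134% in kit version 3.1.

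**Figure D3:**
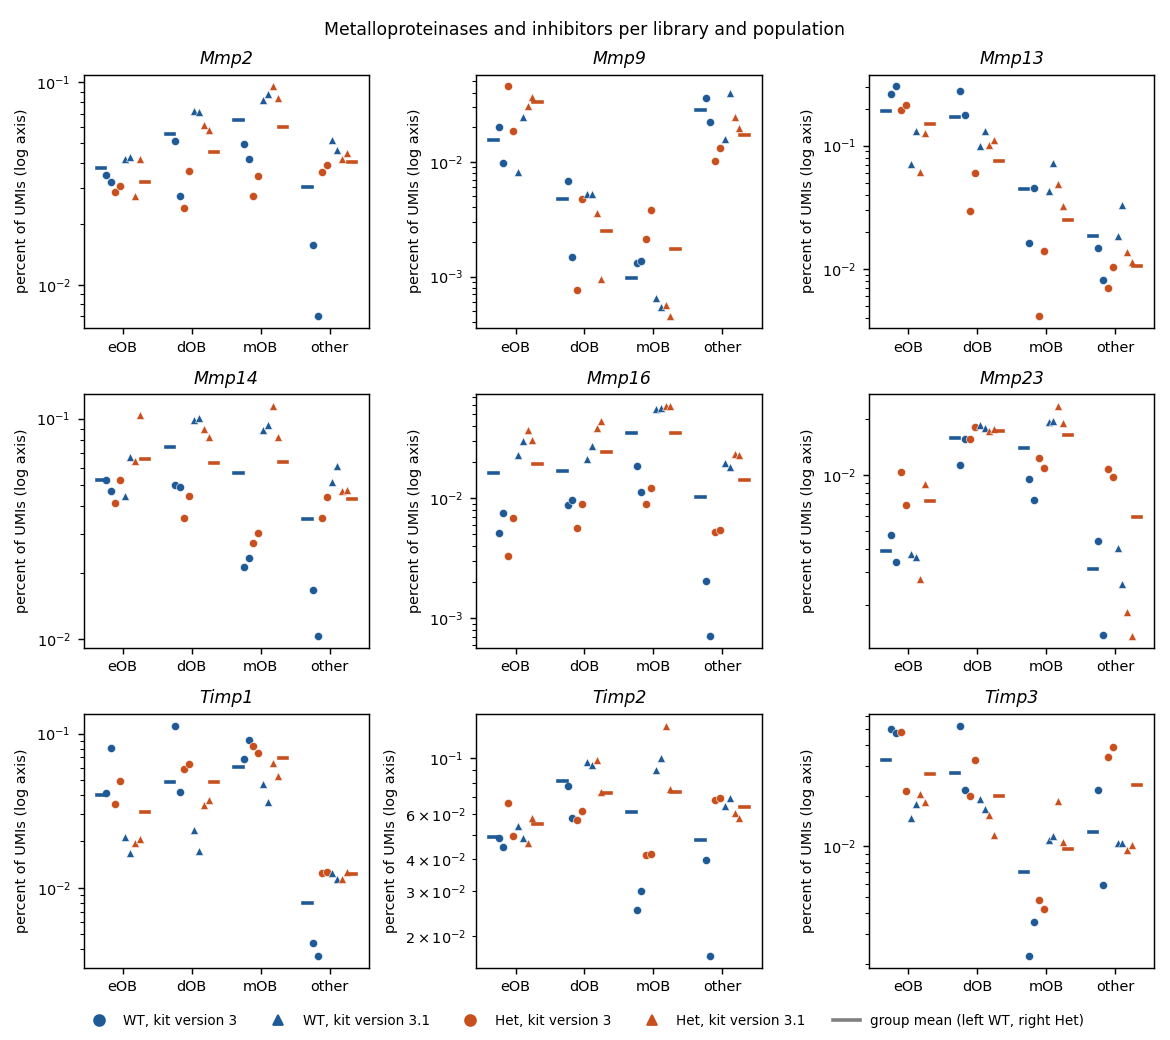
Percent of UMIs (log axis) of each gene in every library for eOBs, dOBs, mOBs and all other cells, with WT in blue, Het in orange, circles for kit version 3, triangles for kit version 3.1 and short lines for the group means. *Mmp13* and *Mmp9* step down from eOBs to mOBs in every library, and *Timp1* and *Mmp16* step up in every library.

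Taking the stage steps together, 8 of the 9 genes were called between eOBs and mOBs, 5 higher and 3 lower, where 35.8% of the 11229 genes tested were called. Between dOBs and mOBs 4 were called, 3 higher (*Mmp2*, *Mmp16* and *Timp1*) and 1 lower (*Mmp13*), beside 26.8% of all genes. The *Timp1* call at this step (0.91 ± 0.18) held in 17 of 18 alternatives and was lost without OBs with at least 3 markers of another class (0.28, adjusted p = 0.385). That fit held kit version 3 libraries alone. With all OBs kept, kit version 3 gave 0.66 ± 0.23 (adjusted p = 0.0454). Between eOBs and dOBs 5 were called, 4 higher (*Mmp2*, *Mmp23*, *Timp1* and *Timp2*) and 1 lower (*Mmp9*), beside 15.4%. The *Timp1* call at the first step (0.55 ± 0.18, adjusted p = 0.0434) held in 6 of 18 alternatives. It was lost in each of 7 fits that left out 1 of S1 or S3 to S8 (adjusted p from 0.0717 to 0.147), with DESeq2's size factors (adjusted p = 0.0787) or its test (adjusted p = 0.0719), without the library block (adjusted p = 0.061), with selection at 3 UMIs (adjusted p = 0.499) and without OBs that met another class's rule (adjusted p = 0.401). The *Timp2* call there (0.63 ± 0.19) held in 13 of 18 alternatives, and among those that lost it were the fits without S5 (0.56), S6 (0.55) or S7 (0.53).

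The kit versions differed for 6 of the 9 genes from eOBs to mOBs (5.6% of all genes), for 1 gene, *Timp3*, from dOBs to mOBs (0.712%) and for 0 from eOBs to dOBs (1.4%). Of the 8 genes called from eOBs to mOBs, 5 (*Mmp2*, *Mmp9*, *Mmp16*, *Mmp23* and *Timp1*) passed in the same direction within each kit version.

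**Figure D4:**
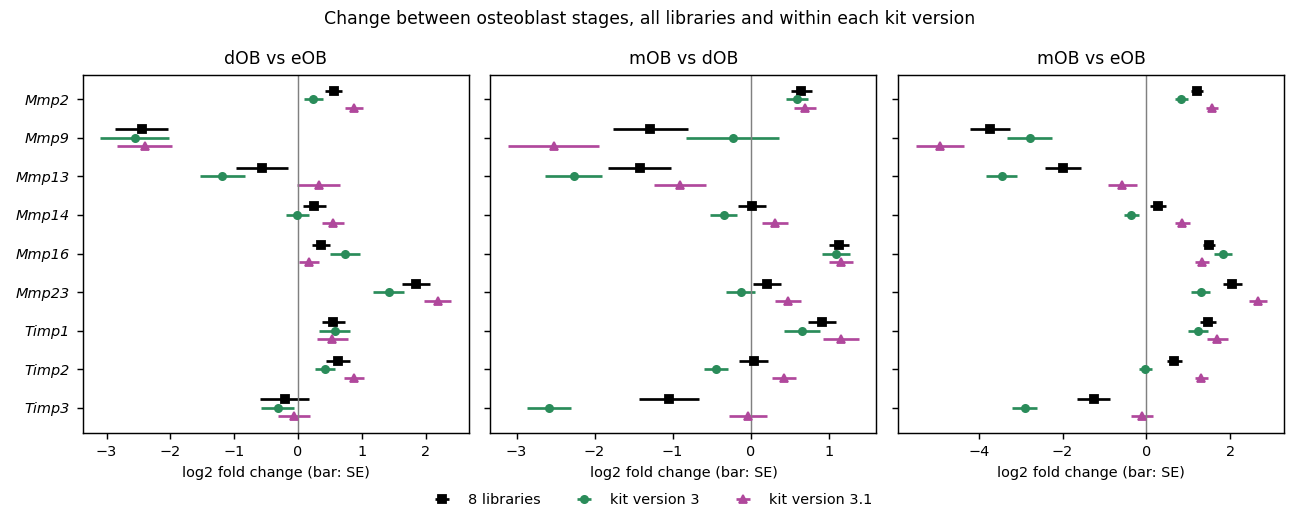
Log2 fold change with its SE between OB stages for each gene over 8 libraries (black squares), within kit version 3 (green circles) and within kit version 3.1 (purple triangles). From eOBs to mOBs *Timp3* is -2.91 for kit version 3 but -0.10 for 3.1, whereas *Timp1* is 1.23 and 1.69.

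Het and WT were compared in each population with kit version in the model, to ask whether the procollagen mutation changed these genes. In mOBs edgeR called 0 of the 9 genes, 3 of which had an unadjusted p below 0.05, and 52 of 10033 genes in all (0.518%). Before adjustment 1104 of the 10033 genes were below 0.05. DESeq2 also called 0 of the 9 in mOBs, with 2 of the 9 and 754 of all genes below 0.05 before adjustment, and 134 genes in all. In dOBs edgeR called 0 of the 9, with 3 of the 9 and 751 of all genes below 0.05 before adjustment, and 1 of 10190 genes in all (0.00981%). DESeq2 also called 0 of the 9 in dOBs, with 2 of the 9 and 575 of all genes below 0.05 before adjustment, and 2 genes in all. In eOBs edgeR called 0 of the 9 and 0% of 8732 genes. Unadjusted p-values below 0.05 were found for 338 genes there, 1 of the 9 among them, and DESeq2 called 3 genes and 0 of the 9. Over all OBs neither edgeR nor DESeq2 called any of the 9 (2 with an unadjusted p below 0.05), and edgeR called 1 of 12080 genes (0.00828%). Of all genes there, 1054 with edgeR and 880 with DESeq2 were below 0.05 before adjustment.

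*Mmp13* had the largest Het against WT difference of the 9 genes in dOBs and mOBs, lower in Het without passing. In dOBs it stood at 0.280% (S1), 0.177% (S2), 0.100% (S5) and 0.131% (S6) in WT and at 0.0294% (S3), 0.0606% (S4), 0.102% (S7) and 0.111% (S8) in Het. The Het libraries of kit version 3 lay below both WT libraries of that kit version, and those of kit version 3.1 lay between the WT values of theirs. The difference was -1.23 ± 0.40 (adjusted p = 0.585), at -2.34 ± 0.29 for the older kit and -0.14 ± 0.27 for the newer (adjusted p of the difference 0.057). In mOBs it was -1.15 ± 0.40 (adjusted p = 0.282), with -1.79 ± 0.51 and -0.55 ± 0.47. All 19 alternatives kept the direction in both stages, and it was called in 2 of 19 in dOBs and 1 of 19 in mOBs.

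Over all OBs the *Mmp13* difference was -2.03 ± 0.20 in kit version 3 and -0.18 ± 0.20 in kit version 3.1. This difference between kit versions passed (adjusted p = 0.015), as did that of *Mmp23* (0.65 ± 0.12 and -0.15 ± 0.11, adjusted p = 0.0335), beside 2.38% of all genes.

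*Mmp9* had the largest difference in eOBs, 1.01 ± 0.35 higher in Het and did not pass, with 1.03 ± 0.49 and 0.99 ± 0.46 in the kit versions, and in S3 it rested on the single cell described above. Averaged over cells in place of summed UMIs, the eOB level was 0.0235% in WT and 0.0255% in Het, against 0.0155% and 0.0328% of the summed UMIs. In dOBs *Mmp9* did not pass (-0.97 ± 0.41, with -0.83 ± 0.69 for the older kit and -1.04 ± 0.49 for the newer). In mOBs it did not pass either (0.68 ± 0.30), and it was above 0 with the older kit (1.13 ± 0.30) but not with the newer (-0.22 ± 0.46; adjusted p of the difference 0.39). Whether the genotype difference itself changed between dOBs and mOBs was tested with the library as a block. None of the 9 genes passed in edgeR or DESeq2 (edgeR called 0% of 11187 genes and DESeq2 3 genes). Unadjusted p-values below 0.05 were found for 504 genes, 2 of the 9 among them, *Mmp9* (1.89 ± 0.70) and *Mmp16* (-0.53 ± 0.20).

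*Timp3* in mOBs was 0.46 ± 0.17 higher in Het (adjusted p = 0.299), with 0.59 ± 0.27 and 0.39 ± 0.20 in the kit versions. For the remaining genes the Het against WT difference in mOBs ran from -0.29 ± 0.15 (*Mmp2*) to 0.30 ± 0.16 (*Timp2*). The median of the 9 differences in mOBs was 0.19, beside 0.01 over all genes tested, and in dOBs it was -0.27 beside -0.0039.

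**Figure D5:**
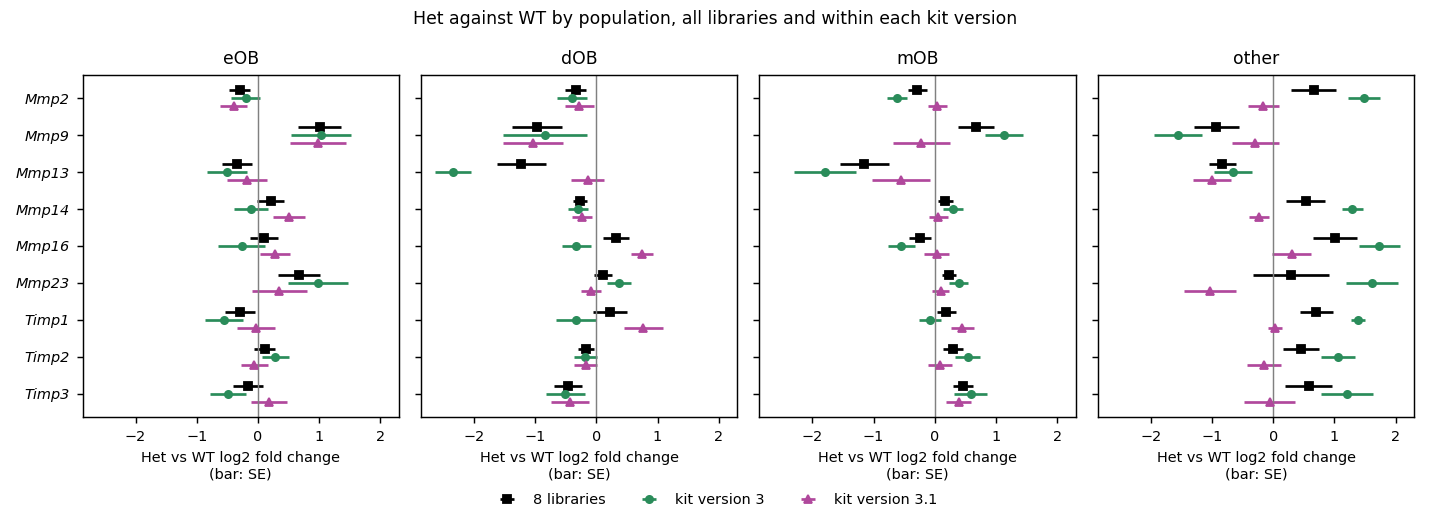
Het against WT log2 fold change with its SE in eOBs, dOBs, mOBs and all other cells, over 8 libraries (black squares) and within each kit version (green circles and purple triangles). *Mmp13* in dOBs is -2.34 for kit version 3 but -0.14 for 3.1, and edgeR called none of the 9 genes in any of these populations.

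Among all other cells edgeR called 0 of the 9 genes and 0% of 16962 genes. Unadjusted p-values below 0.05 were found for 4335 genes, 4 of the 9 among them, and DESeq2 called 1997 genes, including *Mmp13* (-0.85) and *Mmp16* (1.01). *Mmp13* was lower in Het by -0.83 ± 0.23 (adjusted p = 0.167), in the same direction with kit version 3 (-0.65 ± 0.31) and 3.1 (-1.01 ± 0.31). The Het to WT difference depended on the kit version for *Mmp2*, *Mmp14*, *Mmp23* and *Timp1*, beside 23.6% of all genes. *Timp1*, for example, was higher in Het by 1.38 ± 0.12 with kit version 3 and by 0.03 ± 0.12 with kit version 3.1 (adjusted p of the difference 0.00588). These are mixtures of cell classes, and in kit version 3 the WT libraries held the many neutrophil-like and erythroid-like cells given above and few chondrocyte-like cells. Within chondrocyte-like cells of kit version 3, *Timp1* stood lower in Het, at 0.0129% (S3) and 0.0130% (S4) against 0.0168% (S1) and 0.0200% (S2) in WT. Within cells in no class it stood higher in Het, at 0.0163% and 0.0186% against 0.00667% and 0.00626%.

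Other genes of matrix proteolysis were read from 4 lists. Of the 18 other MMP and TIMP genes listed, 3 were tested over the OB stages, and 2 of these, *Mmp11* and *Mmp15*, were lower in mOBs than in eOBs. Among the genes for activators and cell-surface partners of MMPs, 6 of 14 rose and 4 fell from eOBs to mOBs, a step in which 35.8% of all genes tested were called. *Pcsk6*, a proprotein convertase gene, rose by 3.22 ± 0.22, *Bsg*, which encodes the MMP inducer basigin, by 0.80 ± 0.08, and *Serpine2*, a serine protease inhibitor gene, fell by 1.78 ± 0.14. In the lists of ADAM and ADAMTS proteases and of other matrix and lysosomal proteases, 5 of 16 and 5 of 12 rose and 4 and 0 fell, among them *Bmp1*, the procollagen C-proteinase gene (1.47 ± 0.09), and *Phex* (3.68 ± 0.33).

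Between OBs and other cells the endopeptidase gene *Phex* (5.76 ± 0.32) and *Adam12* (2.49 ± 0.17) were higher in OBs, and *Ctss*, a cathepsin gene of immune cells (-3.82 ± 0.41), and the neutrophil collagenase gene *Mmp8* (-4.48 ± 0.49) lower. In Het against WT, *Adamts9* in mOBs was the only gene of the 4 lists that edgeR called in any population (-1.13 ± 0.16, adjusted p = 0.00756).

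The genes whose pattern was most like each of the 9 were found by Pearson correlation of log2 CPM over 32 points (8 libraries in eOBs, dOBs, mOBs and other cells, centred within kit version), as a description. The points of a library share its depth and composition. The closest were *Podnl1* for *Mmp13* (r = 0.92), *Tnfrsf21* for *Mmp9* (0.88), *Serf1* for *Mmp2* (0.92), *Cped1* for *Mmp14* (0.91), *Fgfr1* for *Mmp16* (0.93) and *Lox*, the collagen cross-linking enzyme gene, for *Mmp23* (0.95). For the inhibitors they were *Pth1r*, the parathyroid hormone receptor gene, for *Timp1* (0.94), *Dkk3* for *Timp2* (0.90) and *Loxl1* for *Timp3* (0.87).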

How the data were processed

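Single-cell RNA sequencing counts of 8 parietal bone libraries were used. The deposited matrices are whole-number UMI counts without normalization, and per the submitters' processing notes the authors obtained them by Cell Ranger, in version 5.0.0 for kit version 3 and 6.0.1 for kit version 3.1, on mm10. Cells with at least 500 genes and under 10% mitochondrial UMIs were kept. Doublets were not removed. A cell outside the OBs passed a class with 3 or more of its markers, at 2 or more UMIs each. For the chondrocyte, erythroid and neutrophil lists the markers also had to take 1% of the cell's UMIs, a condition added after the data were seen. Where several classes passed, the cell was put in the one with the largest share of its markers found, and 103 tied cells were kept apart.

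UMIs were summed per library and population (at least 10 cells) and tested in R 4.3.3 with edgeR 4.0.16 (filterByExpr, TMM, estimateDisp, glmQLFit and glmQLFTest). Het against WT had kit version as covariate, and stages, OBs against other cells and genotype by stage had the library as a block. SEs are the fold change over the square root of F. P-values were adjusted by Benjamini-Hochberg over all genes tested, and the threshold was 0.05. Nothing says that libraries came from separate litters, so p-values measure the spread between libraries. The fits of Het against WT in mOBs and of mOBs against dOBs were also run on simulated counts with known changes, with no outcome given here. Alternatives were DESeq2 1.42.0 as test or for size factors, no filter on low counts, type I collagen left out, OB selection at 1 or 3 UMIs, stage limits of 0.5% and 5%, OBs with other markers left out, each library left out, and models without kit version, with a replicate block or without the library block. Cells were handled in Python 3.11.15 (numpy 2.4.6, pandas 2.3.3, scipy 1.17.1).

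The 9 genes were given by name. They and the gene lists were chosen with earlier results of these data known. Named besides them are, of the listed genes, those called (at most 5 per comparison by p), the closest by correlation (of 3 kept for each), and others said to be chosen after their values were seen.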

Additional observations from a re-analysis of the deposited data

Results flagged for a closer look

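In groups of 4 libraries, 2 of 72 sets of levels (gene, population and genotype) had a library far from the other 3, judged by whether its gap to the nearest library, over the whole range, passed Dixon's 95% critical value. Chance alone flags about 1 in 20 such groups. *Timp3* in Het eOBs was 0.0484% of UMIs in S3, against 0.0184% to 0.0216% in the other Het libraries (gap 0.894 of the range). *Timp3* in WT dOBs was 0.0525% in S1, against 0.0168% to 0.0216% in the other WT libraries (gap 0.867 of the range).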

How the results depend on the processing

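Of 1636 values that recomputed a fold change of the 9 genes under an alternative, 1487 kept their direction and side of the threshold, 35 lost and 34 gained a call, 74 uncalled values changed sign, and 6 reversed where either value was called. Without a filter on low counts, Het against WT called 1 of the 9 genes in mOBs, 2 in dOBs, 1 in eOBs, 1 over all OBs and 1 by stage (536, 269, 141, 145 and 91 genes in all). Leaving out OBs with at least 3 markers of another class removed 1921 of 2671 OBs, and left 9 and 8 in S7 and S8, under the 10 a population needed. Of eOBs it left 9, 7, 2 and 1 in S5 to S8. The 3 stage steps came from 1 fit of the libraries with every stage. Its eOB comparison and all its stage steps, that from dOBs to mOBs among them, thus rest on kit version 3 alone. This alternative called 1 of the 9 genes in dOBs, 2 in eOBs and 1 over all OBs for Het against WT (16, 206 and 324 genes in all). From eOBs to dOBs it called 3 (186 of 8037 genes in all). It reversed *Mmp9* in Het eOBs (-2.64), *Mmp14* (-0.43) and *Timp2* (-0.50) from dOBs to mOBs, and *Mmp14* (-0.45) and *Timp2* (-0.017) from eOBs to mOBs. With all OBs kept, kit version 3 gave -0.35 for *Mmp14* and -0.45 for *Timp2* from dOBs to mOBs. From eOBs to mOBs it gave -0.36 and -0.03. *Mmp14* reversed (-0.040) against other cells in no class. DESeq2 called 2 genes in Het against WT other cells (1997 genes in all), and stricter selection called 3 from eOBs to dOBs. Leaving out 1 library gave 2 to 5 genes from eOBs to dOBs, with 2 without S6 and 3 without S5 or S7. Of all genes this step called 1724 of 11229 in the main fit and 868 of 10367 with stricter selection. It called 1046 of 11030 without S6 and 1228 of 11015 without S5. The causes were not tested. The count over all genes for Het against WT, 52 in mOBs, was 134 with DESeq2, 84 with other stage limits, 183 without OBs with other markers and 0 without kit version, and 11 (without S2) to 193 (without S7) without 1 library. Over all OBs it was 1, against 43 with DESeq2, 324 without OBs with other markers and 40 without S7, in dOBs 1 against 16 and in eOBs 0 against 206 without OBs with other markers, and in other cells 0 against 89 without the filter. The replicate block on the number within kit version called 0 of the 9 genes in each Het against WT population, and 58, 0, 0, 3 and 8 genes in all in mOBs, dOBs, eOBs, all OBs and other cells. The numbers are not said to mark a shared litter or day, and the correlations of same-numbered libraries ran from -0.12 to 0.12. Leaving out the 362 OBs that met another class's rule was added after the data were seen. It called 5 of the 9 genes from dOBs to mOBs, 5 from eOBs to dOBs and 8 from eOBs to mOBs. Of all 10379 genes it called 2977, 1063 and 3218 in that order. Of 72 group mean levels, 4 moved by 1 SD or more as a mean over cells. Few UMIs limit *Mmp9* in mOBs, with 3 to 108 a library, and few cells limit the eOB levels, with 22 to 95 a library.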
